A study of Homo sapiens with 2 samples.

Results

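The genes described here encode 9 core proteins that carry heparan sulfate, namely the glypicans GPC1, GPC4 and GPC6, the syndecans SDC1, SDC2, SDC3 and SDC4, and the secreted proteins agrin (AGRN) and perlecan (HSPG2). They were taken by gene symbol from the 16951 genes of the table and were chosen by the D1 against C1 ratio of GPC1, around its higher mRNA level in library D1, so the D1 against C1 differences of the members are a description and not a test. RNA was sequenced from FaDu cells, a line established from a human squamous cell carcinoma of the hypopharynx, at day 2. The labels give 1 library for a control shRNA (shControl) and 1 for an shRNA that targets KIF2C (shKIF2C), a microtubule-depolymerising kinesin; a short hairpin RNA (shRNA) is processed by the cell to degrade a matching mRNA. The design text calls the control cells transfected with blank vectors, and neither the hairpin sequence nor the number of hairpins or clones is given in the sources used here.

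The table names its libraries C1 and D1, and no label ties a code to a condition. The targeted gene KIF2C had 783 reads in C1 against 3036 in D1 (log2 ratio 2.04, 95% counting interval 1.93 to 2.16). This goes against reading C as control and D as knock-down, so differences are given as D1 against C1 and the knockdown library is not established. The libraries held 18189702 and 18559977 reads. All 7 epithelial markers reached 1 CPM (a read count scaled to 1000000 of the effective library size) in both libraries, with summed TPM (the deposited level per gene length, scaled to 1000000 per library) of 1823 in C1 and 4704 in D1. The larger sum in D1 came from keratins and TP63 (KRT5 had 336.3 TPM in C1 and 2061 in D1), while EPCAM had 381.7 and 324.9 TPM and CDH1 160.06 and 126.1. Of 4 measured fibroblast markers only COL1A1 reached 1 CPM, and their summed TPM was 4.04 in C1 and 1.60 in D1; COL3A1 and PDGFRB were at 0 in C1, where a count of 0 allows up to 3 reads. The endothelial markers PECAM1 (12 and 13 reads) and VWF (22 and 29) were rare, whereas CDH5 had 1000 reads in C1 and 249 in D1 (summed TPM of the 3 measured markers 29.2 and 7.40). The pan-leukocyte marker PTPRC had 15 and 11 reads, and the 5 measured immune markers summed to 92.5 and 81.0 TPM, mostly from CD68. The 4 melanocyte or neural crest markers summed to 7.91 and 4.42 TPM, with SOX10 at 1 read in each library. The part of such markers in the differences below was not tested. In these bulk libraries, fewer cells of a type and less RNA per cell cannot be told apart. With 1 library per condition no difference has a replicate check, no p-value is given, and the intervals cover counting error only.

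Heparan sulfate is a long, sulfated sugar chain built onto serines of a small set of core proteins, and the chains bind growth factors, chemokines and matrix proteins. Glypicans are held on the outer face of the plasma membrane by a lipid anchor, syndecans cross the membrane and end in a short cytoplasmic tail, and agrin and perlecan are secreted into basement membranes. In stratified epithelia SDC1 is the syndecan of keratinocyte surfaces, SDC4 sits in focal adhesions, and GPC1 is known as a co-receptor for fibroblast growth factors.

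The members with the largest difference in TPM in either direction were GPC1 and SDC4, and the 250 bases before the RefSeq start of each (GRCh38.p14) are shown because their mRNAs differed in opposite directions. Capitals mark the GC box GGGCGG or its reverse complement CCGCCC, a motif bound by Sp1-type factors; overlapping matches run together. The GPC1 window lies at chr2:240435413-240435662 on the plus strand, and the SDC4 window at chr20:45348425-45348674 on the minus strand.
GPC1: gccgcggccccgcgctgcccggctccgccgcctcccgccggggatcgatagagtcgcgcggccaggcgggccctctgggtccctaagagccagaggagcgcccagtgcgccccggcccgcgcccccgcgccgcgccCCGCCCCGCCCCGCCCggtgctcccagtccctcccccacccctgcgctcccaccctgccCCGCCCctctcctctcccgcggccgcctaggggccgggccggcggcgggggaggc
SDC4: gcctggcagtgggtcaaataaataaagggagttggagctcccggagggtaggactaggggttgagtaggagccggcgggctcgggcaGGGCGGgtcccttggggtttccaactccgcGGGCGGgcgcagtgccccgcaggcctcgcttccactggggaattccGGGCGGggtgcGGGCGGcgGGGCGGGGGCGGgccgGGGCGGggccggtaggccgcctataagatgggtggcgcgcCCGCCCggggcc
The GPC1 window held 4 GC box matches on both strands together and was 84.0% G or C, against a median of 58.0% over 35116 windows of the same length. The SDC4 window held 8 matches and was 73.6% G or C. A GC box was found in 42.6% of all windows. RefSeq windows were found for 7 of the 9 members (8 windows, since SDC1 has a pair of starts). Both SDC1 windows held 1 GC box match, and GPC4 held 2, SDC3 5, HSPG2 8 and GPC6 0. No member window held CCAAT (present in 32.0% of all windows), the E-box CACGTG (6.34%) or the AP-1 motif TGANTCA (6.57%), each searched on both strands. The TATA box TATAAA (10.7% of all windows) was found in the GPC6 window alone. The GPC6 window, chr13:93226557-93226806, lies inside the gene span, which begins at 93216529, and not before it. The SDC3 window, chr1:30908759-30909008, also lies inside its span, which ends at 30909735. So does the SDC1 window at chr2:20225131-20225380, in a span that ends at 20225475. The NF-kappaB consensus motif, searched after the SDC4 sequence had been seen, had 1 match in the SDC4 window, none in the other member windows, and a match in 5.21% of all windows. These matches are letters in a window; binding was not measured.

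GPC1 mRNA was 3.91-fold higher in library D1. The glypican had 1232 reads in C1 and 4521 in D1, or 38.6 and 135.51 TPM, and its log2 ratio was 1.97 (95% counting interval 1.87 to 2.06). It was the only member at least 2-fold higher, and no member was at least 2-fold lower. Of the 13225 genes that reached 1 CPM in either library, 2.4% were at least 2-fold higher in D1 and 4.54% at least 2-fold lower; since the members were gathered around GPC1, nothing is read from its count of 1. Among the 2661 genes that reached 100 CPM in either library, of which 2.52% were at least 2-fold higher, GPC1 ranked 5th by ratio, and its TPM rank among all genes went from 4337th in C1 to 1248th in D1. The gene (NCBI gene 2817) spans chr2:240435663-240468076 in GRCh38.p14. Its span overlaps the antisense RNA gene GPC1-AS1 over 7322 bases and holds the microRNA gene MIR149; neither was analysed here, and as no source states that the counting used strand, GPC1 and antisense reads cannot be told apart.

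The 4 genes with ratios nearest to that of GPC1 among genes at 100 CPM or more were PSAT1, KIF2C, SFN and ANXA8L1. PSAT1, which acts in serine synthesis, stood at 1.98 on the log2 scale, and KIF2C came next at 2.04. SFN, the epithelial 14-3-3 protein stratifin, had 1.88 from 4762 reads in C1 and 16495 in D1. ANXA8L1, an annexin, had 1.78, and it has close copies among which reads may be split. Likeness here is the distance between log2 ratios over 2 libraries.

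**Figure D1:**
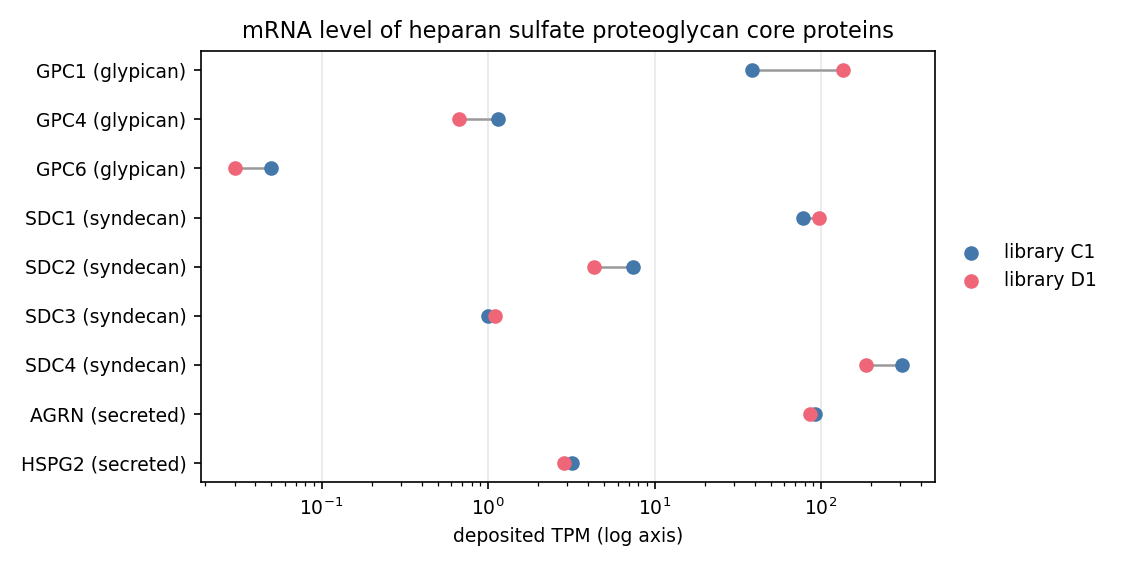
Deposited TPM of each of the 9 genes in library C1 (blue) and library D1 (red) on a log axis, 1 point per library. GPC1 moves from 38.6 to 135.51 TPM, SDC4 from 305.28 to 187.39, and GPC6 lies far to the left of all others in both libraries.

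The other glypicans were rare. GPC4, a glypican tied to FGF and Wnt signalling, had 49 reads in C1 and 30 in D1, or 1.14 and 0.67 TPM. Its log2 ratio of -0.61 had a counting interval of -1.32 to 0.067, so no difference was detectable at this depth. GPC6, whose counts were in part fractions (4.99 and 4.01), had 5 and 4 rounded reads and did not reach 1 CPM in either library; its interval of -2.57 to 1.98 gives no direction. The 3 remaining glypicans of the genome were also below 1 CPM, with 10 and 8 reads for GPC2, 1 and 1 for GPC3 (interval of the log2 ratio -6.20 to 6.38) and 5 and 7 for GPC5. GPC1 therefore held 38.6 of the 39.8 TPM of the member glypicans in C1 and 135.51 of 136.2 in D1. GPC3 and GPC4 lie next to each other on chromosome X with 120255 bases between them, and GPC5 and GPC6 on chromosome 13 with 349291 bases between them, in both cases with no other protein-coding gene in the gap. GPC1, on chromosome 2, was the glypican with high reads in this line.

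The syndecans differed among themselves. SDC4 was the most abundant of the 9 mRNAs in both libraries, with 6707 reads in C1 and 4281 in D1, or 305.28 and 187.39 TPM. It was 1.47-fold lower in D1, with a log2 ratio of -0.56 (-0.61 to -0.50), and its TPM rank went from 477th to 873rd. SDC1 was 1.39-fold higher, with 2124 and 2764 reads, 77.9 and 97.7 TPM and a log2 ratio of 0.47 (0.39 to 0.55). SDC2, a syndecan best known from mesenchymal cells, was 1.55-fold lower, with 215 and 130 reads, 7.40 and 4.31 TPM and a log2 ratio of -0.63 (-0.96 to -0.31). SDC3, a syndecan of neural tissue, had 43 and 49 reads, or 1 TPM in C1 and 1.10 in D1, and its log2 ratio of 0.28 had an interval of -0.34 to 0.90 that holds 0. Thus SDC4 and SDC2 were lower and SDC1 higher beyond counting error, while SDC3 was too rare for a direction.

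The secreted members were nearly level. AGRN, which clusters acetylcholine receptors at the nerve-muscle synapse and is a basement membrane component elsewhere, had 5847 reads in C1 and 5651 in D1, or 92.0 and 85.3 TPM. Its log2 ratio was 0.041 (-0.012 to 0.094), but it was -0.078 with plain library totals and -0.11 by the deposited TPM, so its sign depends on the scaling. HSPG2, the large basement membrane proteoglycan, had 396 and 373 rounded reads, or 3.18 and 2.86 TPM, and a log2 ratio of 0.0039 (-0.20 to 0.21); it lay below 0 with plain totals, DESeq2 size factors and the deposited TPM. Its counts were in part fractions, and the coding gene LDLRAD2 overlaps its span over 2982 bases. Both genes lie on chromosome 1.

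Over the 9 members, the counting interval lay wholly above 0 for 2 (GPC1 and SDC1), wholly below 0 for 2 (SDC2 and SDC4) and held 0 for 5. Among all genes at 1 CPM or more, 30.9% had an interval wholly above 0 and 27.2% wholly below, so such counts are common at this depth. Of the members, 8 passed 1 CPM in at least 1 library. The choice of scaling shifts every count ratio together, by -0.12 with plain totals. Deposited TPM ratios were lower by a median of 0.15, but by unlike amounts from gene to gene. The median over all genes at 1 CPM or more was 0.0097 with TMM scaling (the trimmed mean of M values, the scaling used here), -0.11 with plain totals and -0.14 by deposited TPM. GPC1 and SDC1 stayed above 0 and SDC2 and SDC4 below 0 under each of the scalings tried.

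**Figure D2:**
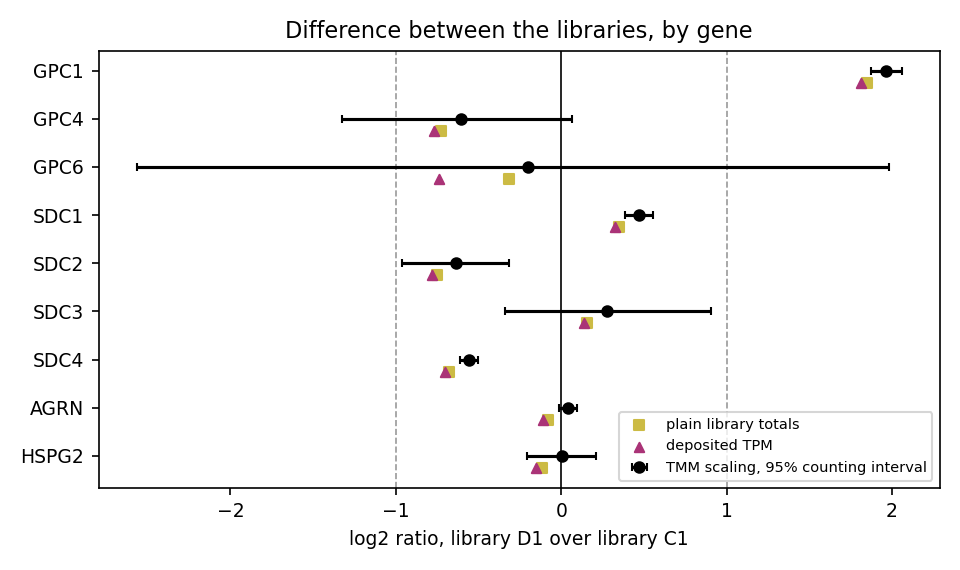
Log2 ratio of library D1 over library C1 for each gene: black points with bars are TMM-scaled counts with 95% counting intervals, squares are plain library totals and triangles are the deposited TPM; dashed lines mark 2-fold. Only GPC1 lies past 2-fold, and AGRN and HSPG2 lie close to 0, on a side that depends on the scaling.

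The order of the levels per length was SDC4, AGRN, SDC1, GPC1, SDC2, HSPG2, GPC4, SDC3 and GPC6 in library C1. In library D1 GPC1 stood second, ahead of SDC1 and then AGRN, and SDC3 stood ahead of GPC4. GPC4 and SDC3 were the only neighbours in either order whose counting intervals overlapped: GPC4 had 0.84 to 1.51 TPM and SDC3 0.72 to 1.35 in C1, and in D1 GPC4 had 0.45 to 0.96 and SDC3 0.81 to 1.45.

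The summed level of the 9 mRNAs was nearly the same in both libraries while its makeup differed. The sum was 526.6 TPM in C1 and 514.9 in D1, a log2 ratio of -0.033 on the TPM scale and 0.12 on the TMM scale. SDC4 supplied 58.0% of it in C1 and 36.4% in D1, and GPC1 supplied 7.33% and 26.3%. SDC1 supplied 14.8% and 19.0%, and AGRN 17.5% and 16.6%. Without GPC1 the sum was 488.0 TPM in C1 and 379.4 in D1, a log2 ratio of -0.36 on the TPM scale and -0.21 on the TMM scale. By class, the 4 syndecans went from 74.4% of the sum to 56.4%, the 3 glypicans from 7.56% to 26.5%, and the 2 secreted members from 18.1% to 17.1%.

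**Figure D3:**
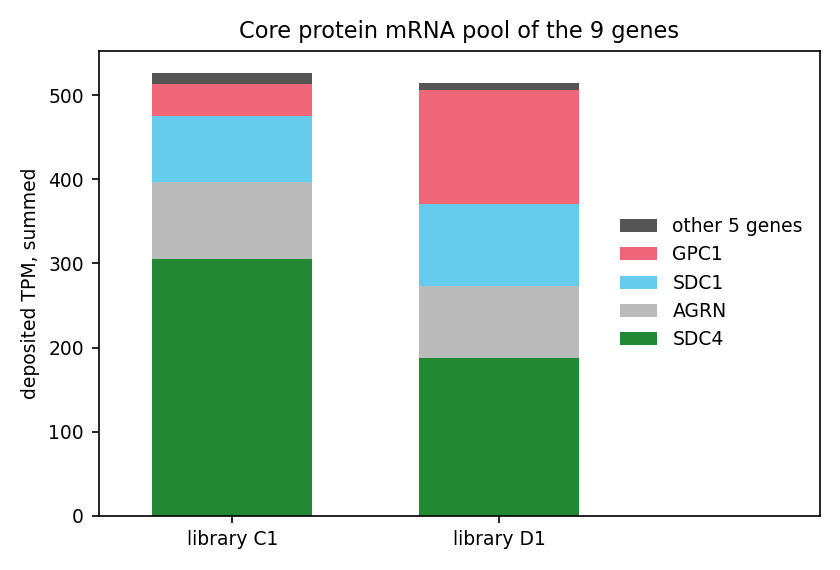
Summed deposited TPM of the 9 genes in each library, stacked by gene, with the 5 least abundant joined. The bars are of nearly equal height (526.6 and 514.9 TPM); the SDC4 segment is larger in C1 and the GPC1 segment larger in D1.

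Shares of reads between 2 genes within a library do not depend on scaling between libraries. GPC1 made up 15.5% of the reads of GPC1 plus SDC4 in C1 (95% exact Clopper-Pearson interval 14.7 to 16.3%) and 51.4% in D1 (50.3 to 52.4%). SDC1 made up 24.1% of SDC1 plus SDC4 in C1 (23.2 to 24.96%) and 39.2% in D1 (38.1 to 40.4%). Against AGRN, GPC1 made up 17.4% in C1 (16.5 to 18.3%) and 44.4% in D1 (43.5 to 45.4%). SDC2 made up 3.11% of SDC2 plus SDC4 in C1 (2.71 to 3.54%) and 2.95% in D1 (2.47 to 3.49%). The intervals of the libraries were apart for the first 3 pairs and overlapped for SDC2 and SDC4, so no difference between those 2 was detectable at this depth. The pairs with GPC1 restate the higher GPC1 level by which the members were chosen, so their separation is a description and not a test.

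The genes at 1 CPM or more that build, edit and break down the chains lay within 2-fold with TMM scaling. These lists and those below were drawn up with earlier results of these data known, so their counts are a description. Of 48 listed genes, 44 were in the table and 39 reached 1 CPM. With TMM scaling none of the 39 was at least 2-fold higher or lower in D1, beside 2.4% and 4.54% of all genes. At those shares few of 39 genes would pass 2-fold, so nothing is read from the absence. IDS passed 2-fold lower with plain totals and deposited TPM, and SULF1 with deposited TPM (-1.06). The median log2 ratio of the 39 was -0.084, beside 0.0097 over all genes. At the start of the chain, where a linker sugar is built onto the core protein, the 6 genes at 1 CPM lay between -0.45 (PXYLP1, a linker phosphatase) and 0.058; B3GAT3, which adds the last linker sugar, had -0.35. Of the polymerases, EXT2 had 1813 and 1172 reads (-0.54, interval -0.65 to -0.43) and EXTL2, a related transferase, 278 and 366 (0.49, 0.26 to 0.72). EXTL1 had 4 reads in C1 and 0 in D1. Of 10 sulfation and epimerisation genes at 1 CPM, 6 lay above 0 and 4 below, beside 51.0% above and 49.0% below among all genes. The ends of that range were the 3-O-sulfotransferase HS3ST3B1 (17 and 28 reads, 0.79) and the 6-O-sulfotransferase HS6ST3 (51 and 29 reads, -0.71). HS3ST3B1 passed the filter through D1 only (0.90 and 1.57 CPM). The pair of N-deacetylase/N-sulfotransferases, named after their values were seen, lay on opposite sides, with NDST1 at 0.55 (1593 and 2198 reads) and NDST2 at -0.57 (404 and 256 reads). Among the 8 supply genes, UXS1, which makes the UDP-xylose of the linker, had -0.54 and the sulfate transporter SLC26A2 0.45. The 3 measured genes that edit chains outside the cell all lay below 0 (49.0% of all genes did). Every interval held 0, so no direction was detectable for any of them. The 6-O-endosulfatase SULF1 had 19 and 10 reads (-0.80, interval -2.10 to 0.34) and reached 1 CPM in C1 only. Heparanase HPSE had 108 and 81 reads (-0.32, -0.76 to 0.10). SULF2, named after its value was seen, had 1801 and 1691 reads (-0.00074, -0.097 to 0.096).

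Lysosomal enzymes that break down heparan sulfate were lower in library D1 by small amounts. All 8 lay below 0 (49.0% of all genes did), none was 2-fold lower with TMM scaling, and their median was -0.37. Plain totals and DESeq2 size factors lower every count ratio relative to TMM scaling, so the 8 had to stay below 0 with them. The 8 also lay below 0 by the deposited TPM, which shifts ratios by a median of -0.15. The counting interval lay wholly below 0 for 4 of the 8, beside 27.2% of all genes at 1 CPM or more. Since the list was drawn up with earlier results known, nothing is read from these counts. IDS, iduronate-2-sulfatase, had 2334 reads in C1 and 1127 in D1 (-0.96, -1.06 to -0.86); its ratio was -1.08 with plain totals and -1.30 by deposited TPM, past 2-fold. IDS had counts that were in part fractions. The summed TPM of the 8 genes was 276.6 in C1 and 164.3 in D1.

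**Figure D4:**
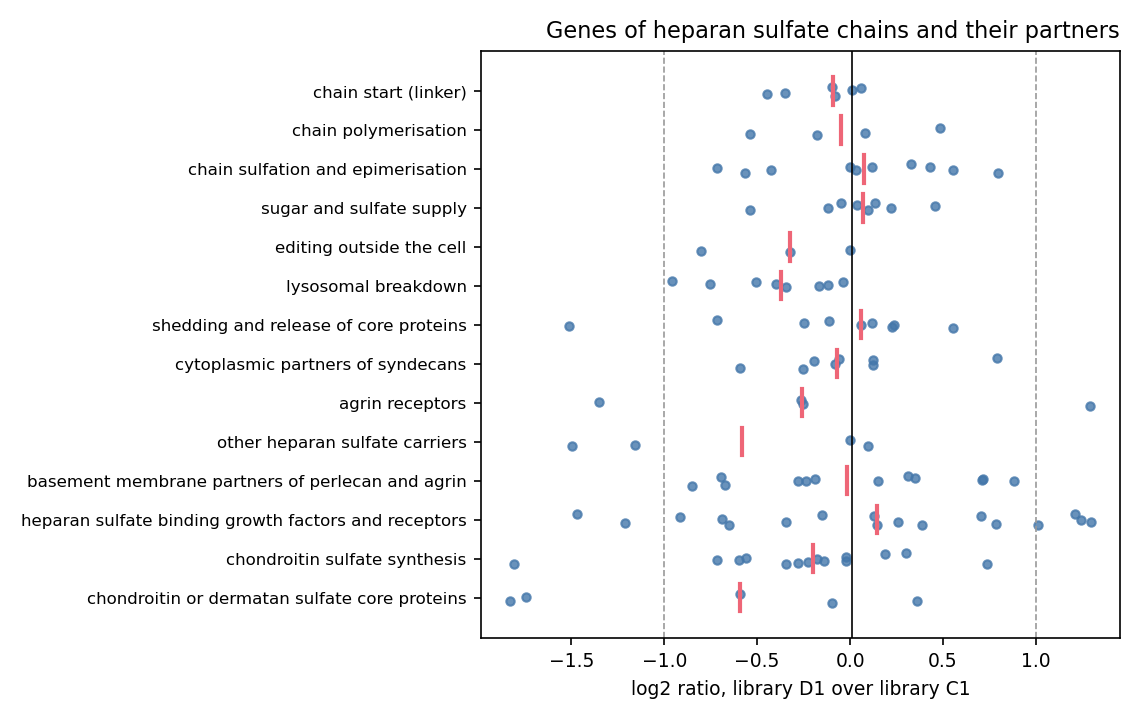
Log2 ratio of library D1 over library C1 for each gene at 1 CPM or more in 14 lists (points, jittered vertically), with the list median (red bar), the median of all genes (black line) and 2-fold (dashed). The 8 lysosomal genes lie left of 0, and the 6 chain building, editing and breakdown lists at the top lie wholly within the dashed lines.

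Among proteins that act on or bind the core proteins, differences went both ways. Of 9 shedding and release genes at 1 CPM, MMP9, a gelatinase that can cut syndecans, was the one at least 2-fold lower (92 and 30 reads, -1.51), and none was 2-fold higher, beside 4.54% and 2.4% of all genes. MMP14, a membrane protease that cuts SDC1, was named after its value was seen and had 4297 and 5921 reads (0.55). None of the 8 cytoplasmic partners of syndecans reached 2-fold. FERMT2, the focal adhesion protein kindlin-2, had 0.79 (818 and 1331 reads) and TIAM1, a Rac activator, -0.59 (236 and 147). SDCBP, the syntenin that binds syndecan tails, named after its value was seen, had 0.12 (4416 and 4515). Among 4 agrin receptors, beside the same shares of all genes, LRP4 was at least 2-fold higher (78 and 180 reads, 1.29) and its kinase partner MUSK at least 2-fold lower (28 and 10 reads, -1.35, interval -2.60 to -0.31). Both were rare, at 1.09 and 2.36 TPM for LRP4 and 0.40 and 0.14 for MUSK, which reached 1 CPM in C1 only. The abundant receptors ITGB1 (13808 and 10901 reads, -0.25) and DAG1 (2288 and 1788 reads, -0.27), named after their values were seen, were lower by less than 2-fold.

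Other proteins that can carry heparan sulfate included NRP1, a neuropilin co-receptor with 2442 reads in C1 and 812 in D1 (-1.50, -1.61 to -1.38), and TGFBR3, the TGF-beta co-receptor betaglycan with 72 and 30 reads (-1.16, -1.84 to -0.54). COL18A1, a basement membrane collagen, had 0.00074 (-0.12 to 0.12), and CD44, the hyaluronan receptor with some heparan sulfate isoforms, 0.094 (8017 and 8037 reads). SRGN, the intracellular proteoglycan serglycin, had 6 reads in C1 and 0 in D1. Together with the rare glypicans GPC2, GPC3 and GPC5, this list of 8 gave 4 genes at 1 CPM, of which 2 were at least 2-fold lower and none higher, beside 4.54% and 2.4% of all genes. Among 12 basement membrane partners of perlecan and agrin at 1 CPM none reached 2-fold with TMM scaling, and 6 lay above and 6 below 0. COL4A2, a type IV collagen chain, had 2675 reads in C1 and 1395 in D1 (-0.85), and lay at the 2-fold limit by deposited TPM (-1.0003).

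Of 17 heparan sulfate binding growth factors and receptors at 1 CPM, 4 were at least 2-fold higher and 2 at least 2-fold lower, beside 2.4% and 4.54% of all genes. The list was drawn up with earlier results of these data known, so nothing is read from its counts beside those shares. With plain totals or deposited TPM these counts were 3 and 3. FGFBP1, a carrier that releases fibroblast growth factors from heparan sulfate, had 1069 and 2464 reads (1.29, 1.19 to 1.40), and PDGFA, a platelet-derived growth factor chain, 460 and 1022 (1.24). The receptors FGFR3 (494 and 1076 reads, 1.21) and FGFR4 (80 and 152 reads, 1.01), named after their values were seen, were the other higher genes; FGFR4 was below 2-fold with plain totals (0.89) and deposited TPM (0.86). EREG, an EGF receptor ligand, had 7623 and 2587 reads (-1.47), and the chemokine CXCL8 had 1933 and 783 (-1.21). Binding to heparan sulfate was not checked for each listed gene, EREG included. PDGFB, another platelet-derived growth factor chain, named after its values were seen, had -0.92 with TMM scaling and passed 2-fold lower with plain totals and deposited TPM (both -1.03). The list's median was 0.14, beside 0.0097 over all genes.

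Chondroitin sulfate, the sister chain built on the same linker, served for comparison. Of 14 synthesis genes at 1 CPM, 3 lay above 0 and 11 below, beside 51.0% and 49.0% of all genes, with a median of -0.20 beside 0.0097. CSGALNACT1, which starts the chondroitin chain, was the one past 2-fold, with 221 and 59 reads (-1.81, -2.25 to -1.39). Of 5 measured core proteins at 1 CPM, VCAN, the matrix proteoglycan versican (43 and 11 reads, -1.83), and CD74 (37 and 10 reads, -1.75) were at least 2-fold lower and none was higher. VCAN (2.27 and 0.62 CPM) and CD74 (1.95 and 0.56 CPM) passed the filter through C1 only, the library where they were higher. Nothing is therefore read from their count. Over all genes, 4.54% were at least 2-fold lower and 2.4% higher. These medians were not tested against the heparan sulfate lists.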

How the data were processed

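RNA from 2 FaDu libraries at day 2 was analysed, 1 per condition. Per the file headers, the authors deposited estimated counts of reads per gene without normalization, together with TPM and FPKM values of their own. The submitters' processing notes name Bowtie2, RSEM and hg38; tool versions and annotation are not stated there. Estimated counts were rounded (48.9% of values in C1 and 48.2% in D1 were not whole). TMM factors from edgeR 4.0.16 under R 4.3.3 were 1.04 and 0.960, so 1 CPM was 19.0 reads in C1 and 17.8 in D1, which sets the precision of rare genes. Ratios used 0.5 added counts; 95% intervals are Clopper-Pearson on a gene's share of reads in D1 (exact Poisson for levels) and cover counting error only. The filter was 1 CPM in at least 1 library, and called means at least 2-fold. No test between conditions was possible. The procedure was tested on simulated counts that held counting error only, with the library sizes known. That simulation cannot check variation between replicates, the scaling or the rounding of estimated counts. Alternatives were plain totals, DESeq2 1.42.0 size factors, deposited TPM ratios, 5 added counts, no filter, 10 CPM, whole counts only and 1.5-fold. Of 16951 gene identifiers, 16887 matched RefSeq (GRCh38.p14), which gave coordinates and sequences. The members and lists were chosen with earlier results of these data known. Named genes were the members, KIF2C, the other carriers, in each remaining list up to 4 genes past 2-fold or else the 2 with the largest absolute ratio at 1 CPM or more, and the 4 nearest to GPC1; some genes that this rule selects are left out here, and others are marked as named after their values were seen.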

Additional observations from a re-analysis of the deposited data

How the results depend on the processing

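With plain library totals the log2 ratios were 1.85 for GPC1, 0.35 for SDC1, -0.68 for SDC4 and -0.078 for AGRN, and with deposited TPM they were 1.81, 0.33, -0.70 and -0.11. With plain totals the shift follows from the scaling, while deposited TPM does not shift all genes by the same amount. The other members stayed within their counting intervals under those settings, and all 9 did with DESeq2 size factors or 5 added counts. At 1.5-fold, 2 members (GPC4 and SDC2) were lower. The count of 1 member at least 2-fold higher was the same under all 8 alternatives. Over all genes, 318 higher and 601 lower became 1040 and 1669 with no filter, 171 and 216 at 10 CPM, 179 and 334 with whole counts only, and 1053 and 1402 at 1.5-fold. The higher share of 34.6% was 24.4% with plain totals (240 higher and 743 lower), 22.2% with deposited TPM (237 and 831) and 44.2% at 10 CPM. Among heparan sulfate pathway genes, at least 2-fold lower were 1 with plain totals, 2 with deposited TPM and 3 with no filter. At 1.5-fold, 4 were lower and 1 higher. No paired analysis was possible because each condition has 1 library and no test was made. Depth limits GPC4, GPC6 and SDC3, whose intervals hold 0 at under 50 reads per library.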
